A study of Mus musculus with 2 samples.

Results

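The cells described are the haemoglobin-rich cell barcodes with few genes in the liver library labelled E18.5. A barcode belonged to the class if it held at least 500 unique molecular identifiers (UMIs, each standing for 1 captured transcript), fewer than 200 detected genes, and at least 50% of its UMIs from the adult haemoglobin genes Hba-a1, Hba-a2, Hbb-bs and Hbb-bt. Members were thus chosen by their measured haemoglobin share, UMI total and gene number. The rule found 1352 of the 9871 barcodes in that library (13.7%, 95% Clopper-Pearson interval 13 to 14.4%), of 19642 barcodes in both libraries. The same rule found 13 of 9771 barcodes (0.133%) in the other library. These values are a description, with no test, and so are levels in the class set against the rest of the library.

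Late erythroblasts lose their nucleus and become reticulocytes, which enter the blood with ribosomes, some mitochondria and a remnant of messenger RNA. Alpha- and beta-globin transcripts dominate that remnant, and the last other transcripts include those for haem synthesis, the membrane skeleton and the ubiquitin and autophagy machinery that removes organelles. The fetal liver makes red cells, whereas the adult liver holds mainly red cells from the circulation.

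Single-cell 3′ RNA sequencing (10x Genomics 3′ v3, NovaSeq6000) was made of 2 mouse livers, 1 labelled E18.5 (embryonic day) and 1 labelled P180 (postnatal day). Both came from hosts with a knockout of Hhex, a gene required for liver formation, into whose blastocysts tetraploid (4N) embryonic stem cells had been introduced. The labels describe the donor cells as tdTomato-positive and give no strain or sex of hosts or donor cells. The gene table holds 0 tdTomato features, so donor and host cells could not be told apart here. There is 1 library per stage, so no test was possible between stages, and stage, animal and library cannot be told apart. All intervals below are 95% exact Poisson intervals for levels and exact conditional intervals for ratios, and cover counting error only.

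The cell makeup of the libraries runs against their stage labels. In the library labelled E18.5, barcodes with at least 200 genes and under 50% haemoglobin (6965, called the other barcodes below) held 22238 B cell marker UMIs per 1000000 UMIs not from haemoglobin. Haemoglobin-rich barcodes with at least 200 genes made up 0.618% of the barcodes (61) there and 56.5% (5521) in the library labelled P180. Whether the labels were exchanged was not tested, so the libraries are named by their labels only. The libraries share 28 barcode sequences, of which 4 are in the class.

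The members held few genes by rule and varied widely in UMIs. They held 505 to 7937 UMIs (median 2627) and 32 to 199 genes (median 86), and haemoglobin took a median of 83.1% of UMIs (5th to 95th percentile 59.1 to 91.2%). When every barcode was thinned to 500 UMIs, the median fell to 31 genes in the class and 29 in the 13 barcodes of the same rule in the other library, against 346 in the other barcodes, 72 in the 61 haemoglobin-rich barcodes with more genes and 119 in the 5521 of the library labelled P180. No barcode was left out by the thinning, and the rule itself used the number of genes. A second group of few-gene barcodes in the same library, 1343 with under 10% haemoglobin, kept a median of 117 genes when thinned.

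**Figure D1:**
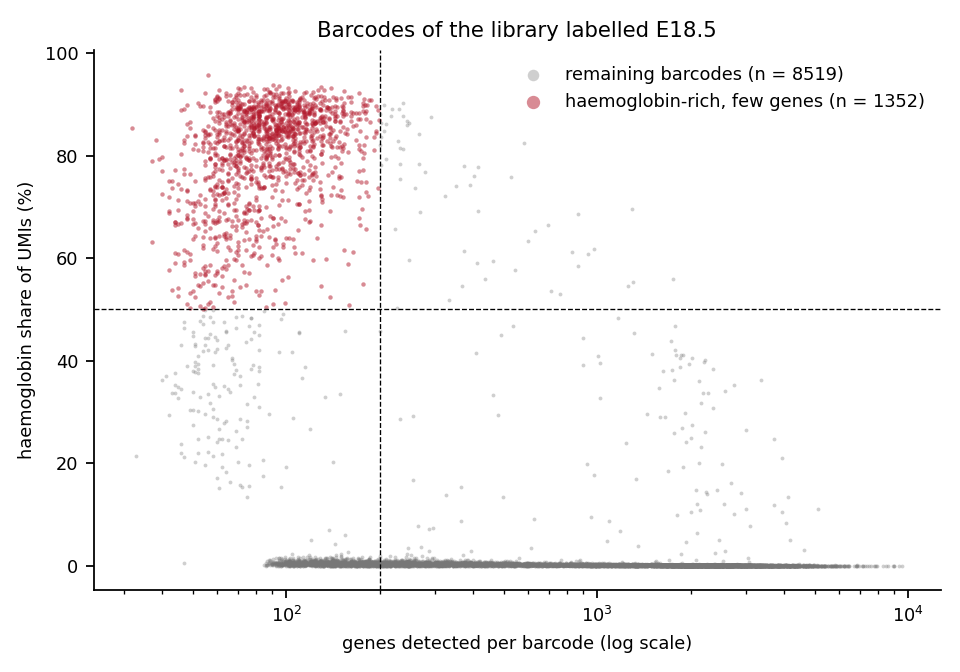
Each point is a barcode of the library labelled E18.5, with detected genes on the x axis and the percentage of UMIs from the 4 haemoglobin genes on the y axis, with the class in red, the remaining barcodes in grey and the limits of the rule as dashed lines. The 1352 barcodes of the class fill the corner of few genes and high haemoglobin, and 150 few-gene barcodes lie between 10 and 50% haemoglobin.

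Few-gene barcodes under 10% haemoglobin were set apart, while the limit of the class at 50% cut a continuous range. It held 52 few-gene barcodes at 40 to 50% and 77 at 50 to 60%. There were 1343 under 10%, 150 between 10 and 50%, and 1352 above, of which 697 held 80 to 90%. The median number of haemoglobin UMIs was 2177 in the class, 252.5 in the few-gene barcodes between 10 and 50%, 3037 in the 61 haemoglobin-rich barcodes with more genes, 3 (95th percentile 7) in the few-gene barcodes under 10% and 3 (95th percentile 8) in the other barcodes. The haemoglobin limits that define the last 2 groups, 10% and 50%, cap these low values but lie far above them. Haemoglobin took a median of 0.406% of UMIs (95th percentile 1.18%) in the few-gene barcodes under 10% and 0.0881% (0.643%) in the other barcodes. At the edge of the rule, the 37 barcodes with 50 to under 55% haemoglobin held 21.2 UMIs of Alas2 per 10000 haemoglobin UMIs, and the 28 just outside, with 45 to under 50%, held 24.9. At the gene limit, the 8 barcodes with 190 to under 200 genes held 16.5 and the 7 with 200 to under 210 genes held 12.5.

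Of 3636250 UMIs summed over the class, 604476 (16.6%) were not from haemoglobin, and most of these were mitochondrial. The 13 mitochondrially encoded genes took 76.4% (95% Clopper-Pearson interval 76.3 to 76.5%) of the UMIs beside haemoglobin, ribosomal protein genes 2.59% and all other genes 21.0%. A barcode held a median of 94 UMIs that were neither from haemoglobin nor mitochondrially encoded, so the statements below rest on sums over the class.

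The mitochondrial transcripts did not follow haemoglobin. Barcodes with under 1000, 1000 to 2000, 2000 to 3000 and at least 3000 haemoglobin UMIs held medians of 288, 320, 326 and 331 mitochondrial UMIs. Over the 1352 barcodes, which share 1 library, haemoglobin and mitochondrial UMIs had Pearson's r = 0.126 and Spearman's rho = 0.133. The median per barcode was 319 in the class, 433 in the few-gene barcodes under 10% haemoglobin and 424 in the other barcodes, although those differ widely in genes. In the library labelled P180 it was 15 in the 13 barcodes of the same rule and 28 in the 5521 haemoglobin-rich barcodes with more genes. The makeup by gene differed between the libraries, and in the library labelled P180 also between groups of barcodes. Among mitochondrially encoded UMIs, no gene's share differed between the class and the few-gene barcodes under 10% haemoglobin by more than 0.557 percentage points. Against the other barcodes the largest gap was 1.87 points, for mt-Co1. Against the haemoglobin-rich barcodes of the library labelled P180 the largest gap was 22.4 points, for mt-Co1, at 8.45% in the class and 30.9% there. Over all barcodes of the library labelled P180, mt-Co1 took 18.1%. Mitochondrial transcripts thus stood at a similar number per barcode throughout the library labelled E18.5. How much of them came from outside the cells was not tested.

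Transcripts per barcode of red cell genes did move with haemoglobin. Over the same 4 ranges of haemoglobin UMIs, Alas2 gave 1.33, 3.24, 4.55 and 5.97 UMIs per barcode and Bpgm 0.409, 1.22, 2.20 and 4.26. Alb, the hepatocyte albumin gene, gave 0.388, 0.432, 0.491 and 0.490, and Igkc, the B cell kappa light chain, 0.519, 0.416, 0.400 and 0.536. Red cell genes were several-fold higher in the top range than in the bottom range, while the liver and B cell genes showed no such increase. Haemoglobin and Alas2 UMIs per barcode had r = 0.538 and rho = 0.555 (n = 1352).

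The highest levels beside haemoglobin, leaving out mitochondrial and ribosomal protein genes, were led by red cell genes. Levels are UMIs per 1000000 UMIs not from haemoglobin. Among the 20 highest, Alas2 stood second, after Gm42418, an annotated long noncoding RNA that overlaps ribosomal RNA sequence and was 0.653 times as high in the class as in the few-gene barcodes under 10% haemoglobin. Bpgm, Ube2l6 and Mkrn1 followed. Tpt1, Tmsb4x, Ftl1, Fth1 and Ubb were also among the 20, and are transcripts of most cell types.

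**Figure D2:**
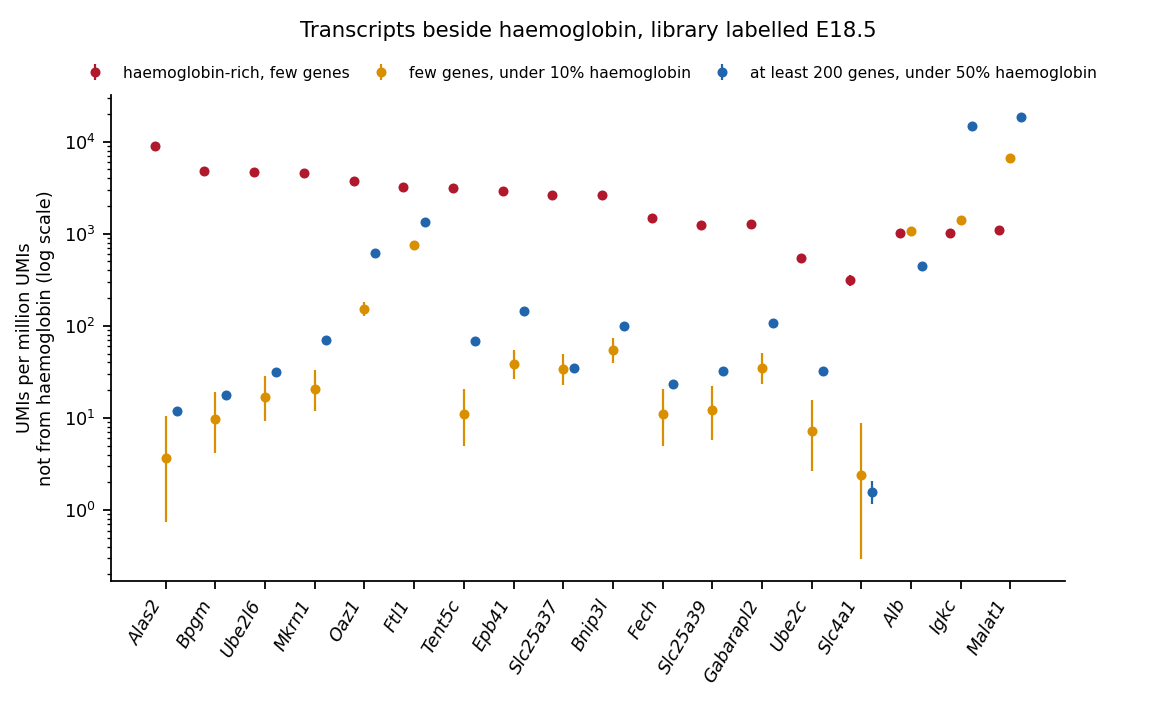
Levels of named genes in UMIs per 1000000 UMIs not from haemoglobin (log axis, bars are 95% exact Poisson intervals) in the class, in few-gene barcodes under 10% haemoglobin and in the other barcodes of the library labelled E18.5. Alas2, Bpgm and Ube2l6 lie over 100-fold apart between the class and both references, whereas Alb and Igkc lie near the level of the few-gene barcodes.

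Alas2, which encodes the erythroid enzyme of the first step of haem synthesis, was the clearest of these genes. It lies at chrX:150547375-150570638 on the plus strand (GRCm38). It held 5409 UMIs in 86.9% of the barcodes of the class, at a level of 8948 (8711 to 9190), 759-fold (685 to 844) above the other barcodes. After thinning to 500 UMIs it was found in 48.7% of the class, 0.503% of the other barcodes and 0.223% of the few-gene barcodes under 10% haemoglobin, where 3 UMIs were counted in all. Its promoter is shown with that of Trim10, because these are protein-coding genes of high ratio whose promoter held the erythroid GATA1 motif AGATAA. Each runs from 250 bases before to 50 bases after the RefSeq start (GRCm38.p6, plus strand), Alas2 at chrX:150547167-150547466 and Trim10, a ubiquitin ligase of erythroid cells, at chr17:36869324-36869623. Capitals mark AGATAA and CCNCNCCC (a KLF1-type motif) on either strand.
Alas2: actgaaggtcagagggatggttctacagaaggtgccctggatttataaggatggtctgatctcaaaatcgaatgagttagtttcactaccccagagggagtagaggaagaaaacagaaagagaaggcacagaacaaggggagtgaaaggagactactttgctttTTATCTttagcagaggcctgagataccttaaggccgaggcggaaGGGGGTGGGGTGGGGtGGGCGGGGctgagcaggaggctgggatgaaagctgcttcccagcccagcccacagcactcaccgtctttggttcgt
Trim10: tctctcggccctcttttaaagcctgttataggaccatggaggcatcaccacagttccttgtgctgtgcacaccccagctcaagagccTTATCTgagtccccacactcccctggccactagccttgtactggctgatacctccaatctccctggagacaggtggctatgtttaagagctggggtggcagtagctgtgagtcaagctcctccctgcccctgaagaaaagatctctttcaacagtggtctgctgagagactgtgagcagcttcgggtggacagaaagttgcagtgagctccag
Of the 20 genes with the highest ratio over the other barcodes, 13 had a promoter in that table. AGATAA was found in 3 of them (23.1%), against 12.7% of all 27025 genes, and CCNCNCCC in 8 (61.5%), against 51.9%. These matches describe letters in a window and do not show binding.

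The haem synthesis list had a high summed level, most of it from Alas2. Its 17 genes all had at least 1 UMI in the class, with a summed level of 12479, against 422 in the other barcodes and 118 in the few-gene barcodes under 10% haemoglobin. Alas2 gave 5409 of the 7543 UMIs of the list, and 11 of its genes had under 20. Of the 17, 6 genes had at least 20 UMIs in the class and all 6 were at least 2-fold above the other barcodes. Of 675 genes with that minimum, 24.6% were at least 2-fold higher and 57.6% at least 2-fold lower. That minimum favours genes that are high in the class, so such counts are descriptions. The median log2 ratio of the 6 was 4.55, and of all 675 genes -1.82. Fech, the ferrochelatase that inserts iron into the ring, was 64.0-fold higher (58.0 to 70.5) with 897 UMIs, and Slc25a39, a mitochondrial carrier needed for haem synthesis, 38.6-fold higher with 759. Urod, an enzyme of an intermediate step, had 34 UMIs and was 4.81-fold higher.

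The median of all genes depends on the scale, because mitochondrial transcripts take most of the class beside haemoglobin. Scaled to UMIs that are neither from haemoglobin, mitochondrially encoded nor from ribosomal protein genes, every ratio over the other barcodes is 3.72 times as large (1.90 on the log2 scale). Then 264 of 585 genes (45.1%) lay at least 2-fold above the other barcodes and 127 (21.7%) at least 2-fold below. Genes named as higher below stay higher on this scale.

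Iron genes were mixed. The list of 16 had 6 genes with at least 20 UMIs, of which 3 were at least 2-fold higher and 2 at least 2-fold lower than in the other barcodes (median log2 ratio 0.70). Slc25a37, the mitochondrial iron importer mitoferrin, was 77.1-fold higher (1604 UMIs in 54.1% of barcodes). Ftl1, ferritin light chain, was 2.43-fold higher with 1946 UMIs, and Fth1, ferritin heavy chain, had a ratio of 1.08 with 1130. Tfrc, the transferrin receptor that immature erythroid cells use to take up iron, had 3 UMIs in the class. The importer into mitochondria and both ferritins were thus well covered, and the surface receptor was almost missing.

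Genes for red cell metabolism were next. Of 21 genes, 10 had at least 20 UMIs, with 8 at least 2-fold higher, 2 at least 2-fold lower and a median log2 ratio of 2.34. Bpgm makes bisphosphoglycerate, which lowers the oxygen affinity of haemoglobin. It held 2914 UMIs in 61.8% of barcodes and was 272-fold higher (249 to 298). Prdx2, an abundant red cell peroxidase, was 5.08-fold higher with 366 UMIs, and Cat, catalase, 6.57-fold with 280. Gpx1, glutathione peroxidase, was 2.78-fold higher with 659 UMIs, and Car2, carbonic anhydrase, had 122 UMIs in 5.92% of barcodes.

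The list of organelle clearance, ubiquitin and enucleation genes had the highest summed level of the red cell lists, 20380 against 4719 in the other barcodes and 964 in the few-gene barcodes under 10% haemoglobin. Of 31 genes, 17 had at least 20 UMIs, with 12 at least 2-fold higher, 1 at least 2-fold lower and a median log2 ratio of 3.07. Ube2l6, a ubiquitin and ISG15 conjugating enzyme, held 2803 UMIs in 74.3% of barcodes and was 148-fold higher (138 to 160). Mkrn1, a ubiquitin ligase, held 2760 and was 65.7-fold higher (62.1 to 69.5). Bnip3l, the receptor for clearance of mitochondria in reticulocytes, held 1583 UMIs and was 26.1-fold higher. Gabarapl2, an autophagosome protein, was 12-fold higher and Rnf10, a ubiquitin ligase acting on stalled ribosomes, 12.3-fold. Alox15, a lipoxygenase of reticulocytes, had 0 UMIs in the class.

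Membrane and skeleton genes had large ratios and few UMIs. Of 34 genes, 13 had at least 20 UMIs, 9 of them at least 2-fold higher, 1 at least 2-fold lower, with a median log2 ratio of 5.60. Epb41, protein 4.1 of the skeleton, was the exception in number with 1765 UMIs in 57.2% of barcodes (20.3-fold). Slc4a1, the band 3 anion exchanger, had 188 UMIs in 9.91% of barcodes and was 199-fold higher (146 to 277). The blood group and surface genes Xk, Ermap, Icam4 and Art4 had 0 UMIs.

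Of 21 other late red cell transcripts, 16 had at least 20 UMIs, 10 of them at least 2-fold higher and 2 at least 2-fold lower (median log2 ratio 2.38). Tent5c, a poly(A) polymerase, held 1916 UMIs and was 46.5-fold higher. Oaz1, the ornithine decarboxylase antizyme, held 2284 and was 6.14-fold higher. Apol11b, an apolipoprotein L gene, was 693-fold higher (423 to 1212) with 218 UMIs, and the theta-globin genes Hbq1a and Hbq1b held 65 and 67 UMIs. The embryonic globins Hba-x, Hbb-bh1 and Hbb-bh2 had 0 UMIs, and Hbb-y had 1.

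Several genes of earlier erythroid cells had almost no UMIs, but the summed list of erythroid regulators was not low. Of 24 erythroid transcription factors and regulators, 8 had at least 20 UMIs, with 4 at least 2-fold higher and 3 at least 2-fold lower. Their summed level was 4305, against 1890 in the other barcodes and 320 in the few-gene barcodes under 10% haemoglobin. Gata1, a transcription factor of erythroid commitment, had 3 UMIs in 1352 barcodes. Klf1 and Gfi1b, also erythroid transcription factors, and Epor, the erythropoietin receptor, had 0. Of the 29 early erythroid and division genes, 4 had at least 20 UMIs, 1 at least 2-fold higher and 3 at least 2-fold lower. Mki67 had 6 and Top2a 1, both markers of dividing cells. The summed early erythroid and division list was 0.392 times as high as in the other barcodes. On the scale without mitochondrial and ribosomal protein genes it was 1.46 times as high, so it has no fixed direction. Ube2c, an enzyme of mitotic exit, was the exception with 327 UMIs in 14.8% of barcodes (16.9-fold higher). Malat1, an RNA held in the nucleus, had 660 UMIs and was 0.0587 times as high as in the other barcodes and 0.163 times as high as in the few-gene barcodes under 10% haemoglobin. Ribosomal protein genes were lower than in the other barcodes, by an amount that depends on the scale. Of 77 with at least 20 UMIs, 76 were at least 2-fold lower than in the other barcodes, with a median log2 ratio of -2.50. Their summed ratio was 0.216, and 0.806 on the scale without mitochondrial and ribosomal protein genes, and against the few-gene barcodes under 10% haemoglobin 16 of 77 were at least 2-fold lower, 2 at least 2-fold higher and 59 between.

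Transcripts of other cell types were present at low number. B cell markers were found in 44.3% of barcodes with any UMI, at 0.658 times the level in the few-gene barcodes under 10% haemoglobin and 0.0654 times that in the other barcodes. Hepatocyte markers were found in 47.8% of barcodes, at levels of 1866 in the class, 1904 in the few-gene barcodes under 10% haemoglobin and 816 in the other barcodes, and 6 of the 9 with at least 20 UMIs were at least 2-fold above the other barcodes. Platelet and megakaryocyte markers stood at 0.129 times the few-gene level, with Gp9, Gp1bb, Itga2b, Tubb1 and Treml1 at 0. Neutrophil markers stood at 0.607 times the few-gene level, plasma cell markers at 0.676, monocyte at 0.572, dendritic cell at 0.623, T cell at 0.476, mesenchymal at 0.414, macrophage at 0.248 and endothelial at 0.184, while bile duct markers stood at 1.12. NK cell markers had 12 UMIs in all. These markers were thus near or under the level of few-gene barcodes that hold almost no haemoglobin. Their part in the levels of single genes was not tested.

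The haemoglobin genes themselves differed between barcodes in a way the rule did not use, since it sums the 4 genes. The alpha-globin genes Hba-a1 and Hba-a2 lie at chr11:32283511-32284465 and chr11:32296489-32297298, and the beta-globin genes Hbb-bs and Hbb-bt at chr7:103826534-103828096 and chr7:103812524-103813996 (GRCm38). Their coding sequences are nearly the same. Over 429 bases, Hba-a1 and Hba-a2 differ by C381T, and over 444 bases Hbb-bs and Hbb-bt differ by C417T, with positions counted from 1 at the A of the start codon in the GENCODE vM21 transcripts. The coding bases 369 to 393 of the alpha genes and 405 to 429 of the beta genes are shown because the capital marks the difference that a read in the coding sequence could carry.
Hba-a1: tgcctctctggaCaaattccttgcc
Hba-a2: tgcctctctggaTaaattccttgcc
Hbb-bs: ggctggagtggcCgctgccctggct
Hbb-bt: ggctggagtggcTgctgccctggct
The annotated bases after the stop codon number 74 in Hba-a1 and 90 in Hba-a2 and share an identical run of 74. In Hbb-bs and Hbb-bt they number 131 and 132, and the longest run they share is 8. Reads of 3′ ends can therefore tell the beta genes apart over much of that sequence, while the split of alpha reads rests on few bases and is uncertain, and the annotation used for counting is not named in the sources used here. The promoters show the same contrast. They run from 250 bases before to 50 after the RefSeq start (GRCm38.p6), at chr11:32283422-32283721 and chr11:32296242-32296541 on the plus strand for the alpha genes, and at chr7:103827879-103828178 and chr7:103813874-103814173 on the minus strand for Hbb-bs and Hbb-bt. Capitals mark on either strand the motif GATAA (bound by GATA factors), the CCAAT box, and the TATA box searched as TATAA.
Hba-a1: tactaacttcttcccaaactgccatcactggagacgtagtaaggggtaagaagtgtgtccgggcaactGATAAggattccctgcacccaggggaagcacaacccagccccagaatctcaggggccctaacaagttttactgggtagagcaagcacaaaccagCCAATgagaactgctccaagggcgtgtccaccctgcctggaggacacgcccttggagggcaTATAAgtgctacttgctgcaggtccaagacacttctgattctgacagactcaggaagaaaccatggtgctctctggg
Hba-a2: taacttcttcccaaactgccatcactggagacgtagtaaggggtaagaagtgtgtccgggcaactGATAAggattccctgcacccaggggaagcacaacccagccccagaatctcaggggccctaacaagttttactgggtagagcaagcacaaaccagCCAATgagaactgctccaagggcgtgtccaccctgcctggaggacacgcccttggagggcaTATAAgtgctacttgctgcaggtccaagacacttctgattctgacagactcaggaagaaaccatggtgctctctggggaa
Hbb-bs: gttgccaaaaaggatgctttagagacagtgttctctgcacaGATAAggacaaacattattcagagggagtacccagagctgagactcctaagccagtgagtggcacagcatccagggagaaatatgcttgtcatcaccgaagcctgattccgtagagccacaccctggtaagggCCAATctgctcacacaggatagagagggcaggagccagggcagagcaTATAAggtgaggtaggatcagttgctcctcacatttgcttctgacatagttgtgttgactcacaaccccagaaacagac
Hbb-bt: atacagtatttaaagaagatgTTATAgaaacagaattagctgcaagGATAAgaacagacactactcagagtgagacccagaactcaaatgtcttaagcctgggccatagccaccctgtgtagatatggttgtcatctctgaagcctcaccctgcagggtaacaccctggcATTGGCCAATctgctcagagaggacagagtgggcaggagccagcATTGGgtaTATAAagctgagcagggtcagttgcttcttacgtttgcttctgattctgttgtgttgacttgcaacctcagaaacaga
The alpha promoters share an unbroken run of 297 bases, and the longest run shared by the beta promoters is 14. All 4 hold each motif, with 3 CCAAT and 2 TATAA matches in Hbb-bt, of which a pair of CCAAT matches, on opposite strands, lies side by side. Of all 27025 genes, 28.4% hold GATAA, 41.1% CCAAT and 28.0% TATAA in this window.

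Hbb-bs gave 1488603 UMIs in the class, Hba-a1 760513, Hba-a2 438749 and Hbb-bt 343909. Alpha genes took 39.6% of haemoglobin UMIs, Hba-a2 took 36.6% of alpha and Hbb-bt 18.8% of beta. Among barcodes, these shares spread far beyond counting error. The standard deviation of the Hbb-bt share was 7.95 percentage points, where binomial counting error alone gives 1.35, and that of the Hba-a2 share was 16.6, against 1.93. In the 5521 haemoglobin-rich barcodes of the library labelled P180 they were 3.66 and 6.12 points.

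**Figure D3:**
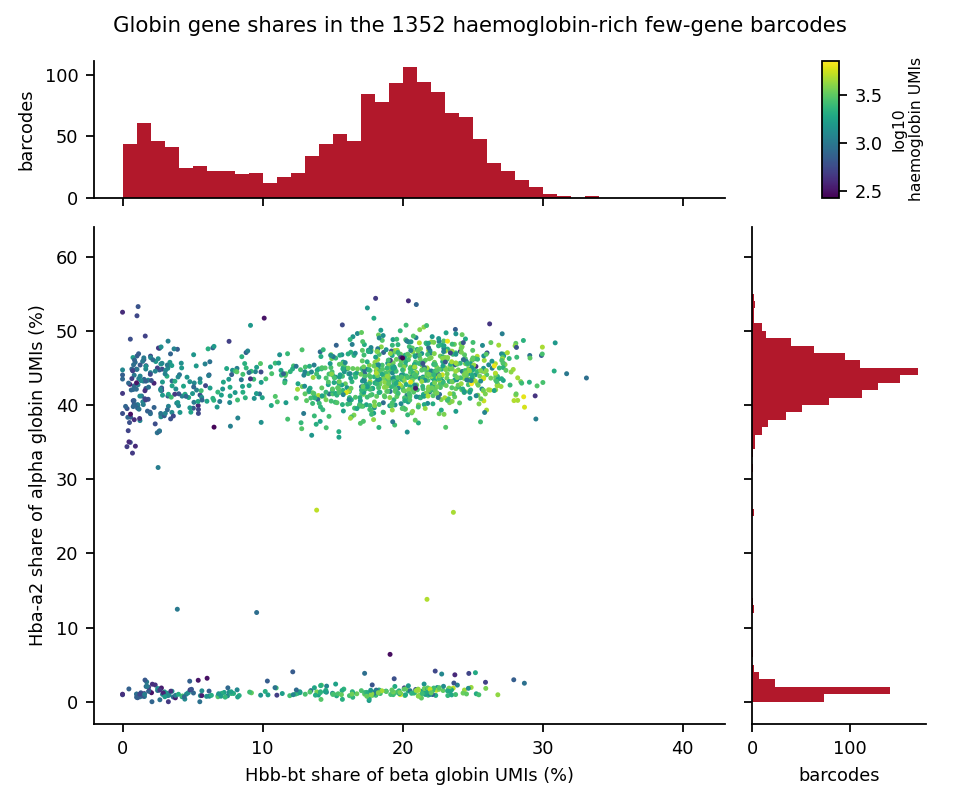
Each point is 1 of the 1352 barcodes of the class, with the Hbb-bt share of beta-globin UMIs (x axis, %) and the Hba-a2 share of alpha-globin UMIs (y axis, %), coloured by log10 haemoglobin UMIs, and histograms of barcodes along both axes. A band of 246 barcodes lies under 5% Hba-a2 across the range of Hbb-bt shares, apart from the 1100 at or above 30%, and barcodes of low Hbb-bt share hold fewer haemoglobin UMIs.

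The Hba-a2 share fell into separate groups. It was under 5% in 246 of the 1352 barcodes (18.2%), between 5 and 30% in 6, and at least 30% in 1100 (81.4%). The 247 barcodes under 10% had a median of 1.22%, and the 1100 at or above 30% a median of 43.7%. Almost no barcode lay between. Among the 61 haemoglobin-rich barcodes with more genes in the same library, 7 were under 5% and 54 at or above 35%. In the library labelled P180, 0 of the 5521 were under 15% and 644 (11.7%) lay at 15 to 30%. Haemoglobin UMIs in barcodes that were not haemoglobin-rich had an Hba-a2 share of 40.2% (few-gene) and 38.0% (other barcodes). The ranges here and below were chosen after these values were seen.

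Barcodes with low and high Hba-a2 share were close in depth, and most other transcripts were at similar levels. Those under 10% had medians of 2276 UMIs, 77 genes and 319 mitochondrial UMIs, and those at or above 30% 2740.5, 87 and 319. Of 334 genes with at least 50 UMIs in the class, compared per haemoglobin UMI, 25 (7.49%) were at least 2-fold higher at or above 30% and 6 (1.8%) at least 2-fold higher under 10%, and the median ratio was 1.03. Within barcodes of 1000 to 2000 haemoglobin UMIs the counts were 13 (3.89%) and 9 (2.69%). Over all barcodes, the 25 were all among the 249 genes that are neither mitochondrially encoded nor ribosomal protein genes (10.0%, median ratio 1.09). By list, median ratios were 1.86 for membrane genes (3 of 8 at least 2-fold higher), 1.46 for metabolism, 1.38 for other late transcripts and 1.12 for haem synthesis. Hepatocyte and B cell markers had 0.777 and 0.774. Alas2 had a ratio of 1.02 (0.947 to 1.1). Ucp2, a mitochondrial carrier, was higher under 10%, with 583 UMIs at or above 30% and 233 under 10%. Per 10000 haemoglobin UMIs that is 2.30 and 4.86 (2.12-fold, 1.81 to 2.47). Apol11b had 150 and 66 UMIs, 2.33-fold (1.72 to 3.13) more per haemoglobin UMI under 10%. Slc25a37 was 2.02-fold (1.69 to 2.43) higher at or above 30%, with 1455 and 136 UMIs, and Cd24a, a surface glycoprotein, 3.02-fold (2.14 to 4.41), with 544 and 34. Trim10 had 77 UMIs at or above 30% and 1 under 10% (14.5-fold, 2.53 to 582).

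The Hbb-bt share had no near-empty range, but fewer barcodes lay at 5 to 15% than on either side. The share was under 5% in 216 barcodes (16%), 5 to 10% in 109, 10 to 20% in 480 and at least 20% in 547. Of the 480, 127 lay at 10 to 15% and 353 at 15 to 20%. The share of barcodes under 5% depended on the limit of the rule, and was 2.87% among the 835 with at least 80% haemoglobin, 12.1% among those with at least 1000 UMIs and 8.50% among those with under 25% mitochondrial UMIs. It moved with depth, with median haemoglobin UMIs of 832, 1473, 2385.5 and 2804 and median genes of 60, 66, 84 and 102 over these ranges, while mitochondrial UMIs stayed at 315, 297, 321 and 324. Over all barcodes the share and haemoglobin UMIs had r = 0.559 and rho = 0.520 (n = 1352). Of the 150 few-gene barcodes with 10 to 50% haemoglobin, 83 (55.3%) were under 5%, and of the 5521 in the library labelled P180, 0. Hba-a2 under 10% was found in every range, in 25%, 27.5%, 18.3% and 13.7% of barcodes.

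Several red cell transcripts, named after their values were seen, were higher where the Hbb-bt share was higher. Bpgm gave 18, 23, 991 and 1882 UMIs over the 4 ranges, or 0.894, 1.44, 8.58 and 12.4 per 10000 haemoglobin UMIs, 13.9-fold (8.77 to 23.5) between the highest and the lowest range, and 11.1- to 44.9-fold over 6 other settings (44.9-fold with at least 80% haemoglobin). Mkrn1 gave 1.09, 2.19, 8.62 and 11.3 (10.3-fold, 6.79 to 16.5). Gabarapl2 had 4, 6, 283 and 486 UMIs, 16.1-fold (6.27 to 59.5) per haemoglobin UMI. The step for all 3 genes lay between 5 to 10% and 10 to 20%. Glrx5, which takes part in iron-sulphur cluster assembly, had 0, 2, 93 and 225, at least 9.97-fold higher at the top, and Cat had 0, 2, 68 and 210, at least 9.30-fold higher.

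Other red cell genes followed Hbb-bt far less. Alas2 gave 11.1, 14.0, 17.7 and 19.3 per 10000 haemoglobin UMIs, 1.74-fold (1.52 to 2.01), and Ube2l6 5.11, 7.18, 9.79 and 9.60, 1.88-fold. Epb41 was 2.43-fold and Fech 2.23-fold higher, Fth1 had a ratio of 1.07, and Ftl1 gave 8.0, 8.12, 6.81 and 5.73, a ratio of 0.716. The barcodes of low Hbb-bt share therefore held transcripts of the first enzyme of haem synthesis and of protein 4.1, with few of Bpgm, Mkrn1 or Gabarapl2. Ftl1 and Fth1 are transcripts of most cell types, and how much of them came from outside the cells was not tested.

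**Figure D4:**
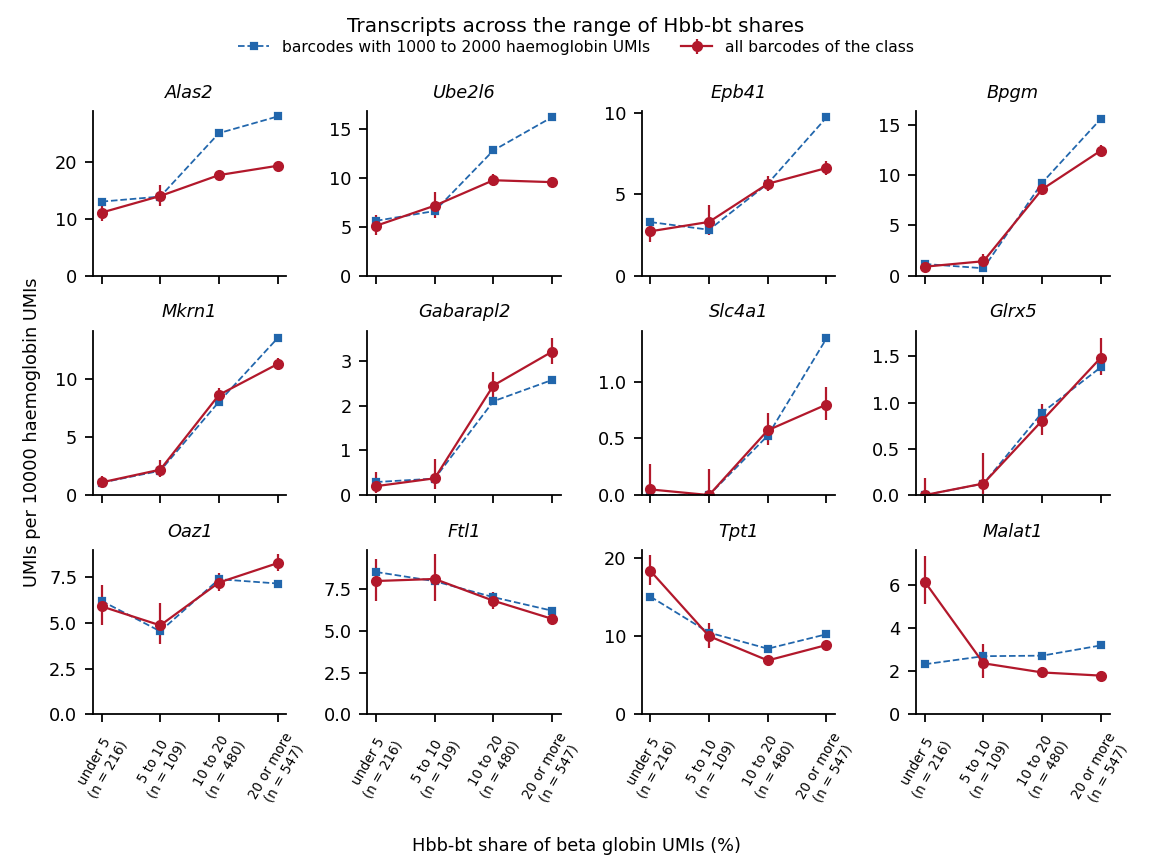
UMIs per 10000 haemoglobin UMIs of 12 named genes (linear y axes from 0) over 4 ranges of the Hbb-bt share of beta-globin, for all barcodes of the class (red, bars are 95% exact Poisson intervals, n under the axis) and for those with 1000 to 2000 haemoglobin UMIs (blue). Over all barcodes of the class (red), Bpgm, Mkrn1 and Gabarapl2 are over 10-fold higher in the highest range than in the lowest. In the same series Alas2, Ube2l6 and Epb41 are under 3-fold higher, and Ftl1 is not higher.

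The depth gap was narrowed by comparing only barcodes of 1000 to 2000 haemoglobin UMIs, 78 under 5% and 105 at or above 20% Hbb-bt share. Their medians were 1289 and 1517 haemoglobin UMIs, 1706.5 and 2006 UMIs in all, and 60 and 106 UMIs neither from haemoglobin nor mitochondrial, so depth was not equal. Bpgm then had 12 and 248 UMIs, 13.4-fold (7.52 to 26.2) per haemoglobin UMI. Mkrn1 had 11 and 215 (12.7-fold, 6.93 to 25.7), Gabarapl2 3 and 41 (8.85-fold, 2.82 to 44.7) and Alas2 134 and 445 (2.15-fold, 1.77 to 2.63). Over all barcodes, 91 of 334 genes (27.2%) lay at least 2-fold above at the high share and 121 (36.2%) at least 2-fold below. Within the haemoglobin range the counts were 71 (21.3%) and 4 (1.2%). The 13 mitochondrially encoded genes had a median ratio of 0.355 over all barcodes and 0.854 within the range, and Alb 0.363 and 0.801. Fewer genes were thus on the lower side within this range, while Bpgm and Mkrn1 had ratios over 10-fold in both comparisons.

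By list, over all barcodes, 11 of 14 clearance and ubiquitin genes with at least 50 UMIs were at least 2-fold higher at the high Hbb-bt share (median ratio 3.88), as were 8 of 9 metabolism genes (4.19), 5 of 8 membrane genes (3.83), 9 of 12 other late transcripts (3.54), 3 of 5 transcription factors and regulators (3.54), 4 of 5 haem synthesis genes (2.26) and 2 of 5 iron genes (1.07). The median of all 334 genes was 0.715. Among the 249 that are neither mitochondrially encoded nor ribosomal protein genes it was 1.64, with 36.5% at least 2-fold higher. The iron genes were below that median.

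Against the haemoglobin-rich barcodes of the library labelled P180, most counted genes were lower in the class, a side that the minimum count favoured. Per haemoglobin UMI, 251 of 9056 genes (2.77%) with at least 20 UMIs in either were at least 2-fold higher in the class and 7970 (88%) at least 2-fold lower, and per 1000000 UMIs not from haemoglobin 537 (5.93%) and 6979 (77.1%). With the haemoglobin genes included, 679 genes reached 20 UMIs in the class and 9025 in the other group. Most of the 9056 thus entered only through the group where they are high, and the excess of lower genes is largely set by that minimum. The 2 groups differ by rule in gene number, and by library. Alas2 was close, with 17.8 UMIs per 10000 haemoglobin UMIs in the class and 21.8 there, 1.22-fold lower (1.19 to 1.25). Tent5c (6.32 and 9.87), Bnip3l (5.22 and 7.78), Ube2l6 (9.25 and 14.0), Bpgm (9.61 and 15.6) and Mkrn1 (9.10 and 16.4) were lower by under 2-fold.

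**Figure D5:**
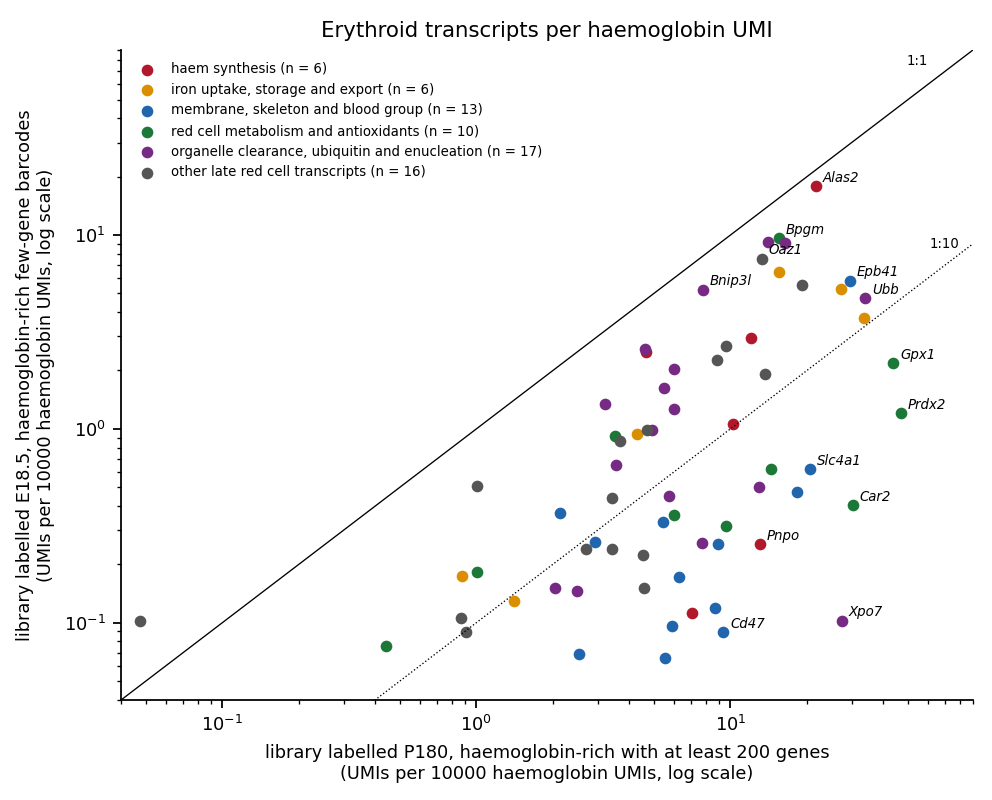
UMIs per 10000 haemoglobin UMIs of red cell genes with at least 20 UMIs in the class, coloured by list, in the class (y axis) and in the haemoglobin-rich barcodes with at least 200 genes of the library labelled P180 (x axis), on log axes, with lines of equality and of a 10-fold difference. Alas2 lies near equality, and Slc4a1, Car2 and Prdx2 lie over 30-fold below it.

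Other red cell genes were lower in the class by more than 2-fold. Fech was at 2.96 against 12, Epb41 at 5.82 against 29.5 and Slc25a37 at 5.29 against 27.2. Gpx1, at 2.17 against 43.8, and Slc4a1, at 0.62 against 20.6, were lower still. Prdx2 was 38.8-fold lower, Car2 75.2-fold (0.402 against 30.3) and Xpo7, a nuclear exporter used in enucleation, 268-fold (0.102 against 27.4). Malat1 was at 2.18 against 94.9. As lists, clearance and ubiquitin genes were 4.53-fold lower (40.6 against 184), haem synthesis genes 4.65-fold (24.9 against 116), iron genes 5.76-fold, metabolism genes 10.9-fold, transcription factors and regulators 11.6-fold (8.58 against 99.7), membrane genes 20.4-fold (9.12 against 186) and early erythroid and division genes 24.3-fold (1.63 against 39.4). The median gene of the 9056 had a log2 ratio of -3.94, and 88% were at least 2-fold lower. The list values are ratios of summed UMIs, which abundant genes lead, so they are not on the measure of that median. In the class, Alas2 gave 5409 of the 7543 haem synthesis UMIs. Among genes with at least 20 UMIs in either group, 14 of 16 haem synthesis genes were at least 2-fold lower, a share near that of all genes, and 34 of 34 membrane genes. Only 6 and 13 of these reached 20 UMIs in the class. Most thus entered only through the other group, as did most of the 9056 genes, so these counts are largely set by the minimum.

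The 13 barcodes of the same rule in the library labelled P180 give the direct comparison, on few barcodes. Per 1000000 UMIs not from haemoglobin, 13 of 675 genes (1.93%) were at least 2-fold higher in the class and 609 (90.2%) at least 2-fold lower, and per haemoglobin UMI 45 (6.67%) and 392 (58.1%). Per 10000 haemoglobin UMIs, Alas2 was at 17.8 in the class and 17.6 in the 13 barcodes, which held 96 UMIs of it. Bpgm was at 9.61 and 12.1 and Ube2l6 at 9.25 and 6.95. Gpx1 was at 2.17 and 23.8 (130 UMIs in the 13 barcodes), Ubb, a polyubiquitin gene, at 4.72 and 33.1 (181 UMIs), and Prdx2 at 1.21 and 9.33 (51 UMIs). Gpx1, Ubb and Prdx2 are named because they were among the 10 lowest ratios over these barcodes, so their gap is fixed by that choice. The 10 genes with the highest ratio over these 13 barcodes were all mitochondrially encoded.

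Within the library labelled E18.5, the 61 haemoglobin-rich barcodes with at least 200 genes held 28.8 haem synthesis UMIs per 10000 haemoglobin UMIs, against 24.9 in the class, and 29.6 membrane UMIs against 9.12. B cell markers stood at 20.6 there and at 2.90 in the class, and Malat1 was found in 70.5% of those barcodes and in 34.7% of the class. Per haemoglobin UMI, 6 of 742 genes (0.809%) were at least 2-fold higher in the class and 577 (77.8%) at least 2-fold lower, and per 1000000 UMIs not from haemoglobin 41 (5.53%) and 420 (56.6%). Scaled without mitochondrial and ribosomal protein genes, 197 genes were above and 138 below, so the direction depends on the scale, and a higher gene number is fixed by the rule. The part of the B cell markers in these differences was not tested.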

How the data were processed

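Unnormalised UMI counts of 32285 genes in each barcode were deposited by the authors, and every value is whole. Per the file headers, Cell Ranger 7.1.0 wrote them. The submitters' processing notes name mm10, fastp, Trimmomatic, Seurat and edgeR with no role; the sources used here do not say how barcodes were called, and the lowest total is 500 UMIs. Counts were summed over barcodes of each group and scaled to UMIs not from haemoglobin or to haemoglobin UMIs. Genes needed 20 UMIs in the class (or in either group, against other haemoglobin-rich barcodes), or 50 for named ratios and share ranges. No doublet caller was run. With 1 library per stage no test was made. A count of 0 was replaced by a floor of 3 counts over the group. Thinning used seed 1. Named genes were those of the red cell lists with 20 UMIs, the 20 highest levels, the 20 highest ratios over other barcodes (50 UMIs, 2% of barcodes), the 10 highest and lowest against the same rule in the other library, and markers; genes named outside this rule (among them Tfrc, Gata1, Klf1, Gfi1b, Epor, Xpo7, Cd24a, Mki67 and Top2a) were chosen after their values were seen. Some genes the rule names are not reported here. The members and lists were chosen with earlier results of these data known. Promoters came from RefSeq (GRCm38.p6), gene positions and coding sequences from GENCODE vM21. The work ran on Python 3.11.15 with scipy 1.17.1, numpy 2.4.6, matplotlib 3.10.9 and pandas 2.3.3. The ratios and intervals were tested on simulated counts for the class against the other barcodes only. The floor for counts of 0 and the smaller reference groups were not simulated. Alternatives were stricter limits on haemoglobin, genes, UMIs and mitochondrial share, no barcodes with B cell markers, equal weights, a 50 UMI minimum and other scales and references.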

Additional observations from a re-analysis of the deposited data

How the results depend on the processing

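No paired analysis was possible because each stage has 1 library. With at least 80% haemoglobin, 835 barcodes remained, with 13% of UMIs not from haemoglobin, of which 2.79% ribosomal protein and 72.6% mitochondrial, and 220 genes were at least 2-fold below the other barcodes. Under 150 genes, these 3 shares were 16.8%, 2.47% and 77.7%. With under 25% mitochondrial UMIs they were 15%, 2.69% and 74.5%, and with barcodes weighted equally 19.9%, 2.68% and 76.0%. With at least 1000 UMIs, 16.1% were not from haemoglobin and 76.0% of those mitochondrial. Without barcodes holding a B cell marker UMI, 753 remained (16.5%, 2.54% and 76.6%), with 197 genes below the other barcodes and 360 below the same rule in the library labelled P180. With a minimum of 50 UMIs these counts were 145 and 268, and 26 genes were above and 150 below the haemoglobin-rich barcodes with more genes. Scaled without mitochondrial and ribosomal protein genes, 264 and 127 genes were above and below the other barcodes, 34 and 297 the same rule under the P180 label, and 197 and 138 the haemoglobin-rich barcodes with more genes. Scaled to haemoglobin, 45 and 392 were above and below the same rule and 6 above the haemoglobin-rich barcodes with more genes. Counts of genes below the same rule under the P180 label include genes called through the floor of 3 counts. Against few-gene barcodes under 10% haemoglobin 111 genes were lower. Against the haemoglobin-rich barcodes labelled P180, where most counted genes reached the minimum only under that label, 537 were higher and 6979 lower. The cause of these moves was not tested, except that fewer barcodes and higher minimums leave fewer genes to count. Over 7 other settings, 51 named levels moved by under 1.5-fold, except Car2 and Trim10 under 150 genes. For the globin shares, whose ranges were chosen after seeing the data, 6 settings were run. Hba-a2 stayed under 10% in 15.6 to 18.7% of barcodes, while Hbb-bt under 5% ranged from 2.87% (at least 80% haemoglobin) to 16.6%. The ratio between the Hbb-bt ranges was 11.1 to 44.9 for Bpgm and 1.58 to 1.75 for Alas2.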

Other observations

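Some transcripts were found in fewer barcodes than an even spread gives. Isg15, a ubiquitin-like protein, was found in 5.77% of barcodes, where an even spread in proportion to each barcode's UMIs that are neither haemoglobin nor mitochondrial gives 11.1%, and 1 barcode held 19 of them. Rsad2, an antiviral enzyme, was found in 0.711 times as many barcodes as an even spread gives, Gpx1 in 0.627 times (23.1% against 36.8%), Ubb in 0.674, Car2 in 0.694 and Ube2c in 0.708. The median over 321 genes was 0.957. These genes were picked after their values were seen.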
